A study of Mus musculus with 8 samples.

Results

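The comparison set mouse embryonic stem (ES) cells lacking Rbp2 against ES cells carrying the Rbp2f/f allele, averaged over culture with and without leukaemia inhibitory factor (LIF), a cytokine added to hold such cells in the undifferentiated state. All 8 of the 8 arrays of the study entered it, 4 Rbp2-/- and 4 Rbp2f/f. Each genotype had 2 arrays from cells kept in ES cell medium and 2 from cells grown for 6 days after LIF was removed from that medium. Total RNA was hybridised to Affymetrix mouse genome 430 2.0 arrays, which measure transcripts with sets of short probes. The f/f notation conventionally marks an allele flanked by recombination sites, here the control; how the deletion was made, and whether each line was 1 clone, is not given in the sources used here. The arrays are labelled as biological replicates, but separate cultures or clones are not named, and p-values measure only the spread between these arrays.

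Rbp2 is the older name of Kdm5a. Its protein binds the retinoblastoma protein and removes methyl groups from lysine 4 of histone H3, a mark that accumulates at active promoters. Its paralogues Kdm5b and Kdm5c act on the same mark. ES cells express many of the genes that demethylase studies follow, among them cell cycle genes, lineage regulators and imprinted genes, which are expressed from only the maternal or only the paternal copy.

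Values below are normalized intensities, brought to a common distribution across the arrays, from the brightest probe set of each gene. A difference is Rbp2-/- minus Rbp2f/f on the scale log2(intensity + 16), fitted over all 8 arrays with medium as a block. A gene was called where limma's Benjamini-Hochberg adjusted p was under 0.05 among 10916 genes tested. With 2 arrays in each group, the number of arrays limits the precision.

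Between the genotypes 11 genes differed by this measure, 0.101% of those tested. Eif2s3y, Sgce, Mest, Cdca3, Vps50 and Suclg1 rose (6 genes, 0.055%), and Grb10, Cd99, Kdm5a, Esrp1 and Igdcc4 fell (5 genes, 0.0458%). For all 11, the Rbp2-/- and Rbp2f/f values did not overlap within either medium, and the direction was the same with and without LIF. The same held for 13.7% of all genes tested. The 11 were chosen by their difference on these same arrays, so this is no separate support. Of the 11, 6 lie on chromosome 6, which carries 4.85% of the genes tested. The split into 6 higher and 5 lower depended on how arrays were brought to a common level. It was 3 higher and 5 lower after median centring alone, and 4 higher and 6 lower on the values as deposited.

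**Figure D1:**
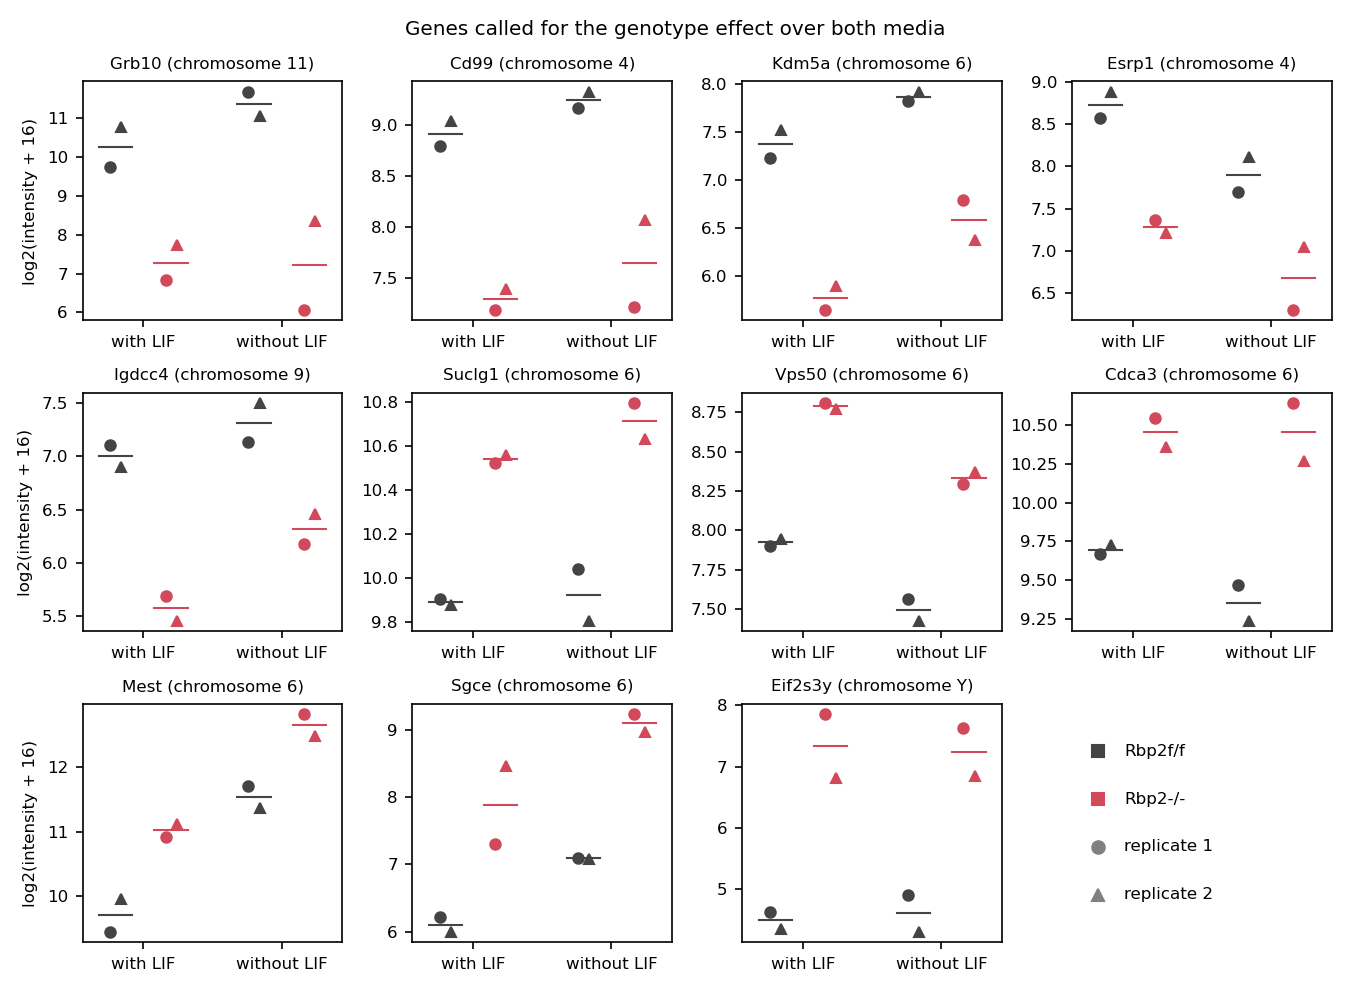
Level of the 11 called genes on each of the 8 arrays as log2(normalized intensity + 16), by medium and genotype; circles are replicate 1, triangles replicate 2 and lines the mean of 2 arrays. In every gene the Rbp2-/- points of a medium lie entirely above or entirely below the Rbp2f/f points. The genes were chosen by their difference on these same arrays.

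The arrays met their labels for medium. The summed intensity of 6 ES cell markers ran from 14470 to 17320 with LIF and from 2589 to 3611 without. Correlations between the 2 arrays of a group were 0.958 to 0.982 over the genes tested. One Rbp2-/- array with LIF, replicate 2, was deposited at a lower level than the rest, with a trimmed mean of 77.5 against 110.5 to 128.4. The signal of the 18S ribosomal RNA control ran from 114.6 to 706.1 on the Rbp2f/f arrays and from 32.1 to 179.5 on the Rbp2-/- arrays. It was highest on Rbp2f/f with LIF replicate 1. On that array the ratio of 3' to 5' signal of the Gapdh control was 1.11, against 0.782 to 0.85 on the others. The part of these control values in the results was not tested. Markers of blood cells summed to at most 32.55 on any array, and none of them reached the level at which genes were tested. A fibroblast list of 12 markers, 10 of them tested, summed to 881.2 and 655.5 in Rbp2f/f cells with LIF, against 1336 and 1681 in Rbp2-/- cells. Without LIF the sums were 2722 and 2479 against 5690 and 2592, which overlapped, and the part of such cells in the results was not tested.

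Kdm5a itself came first as the check of the genotype. Its probe set 1452360_a_at read 134.1 and 167.7 for Rbp2f/f against 34.1 and 43.5 for Rbp2-/- with LIF. Without LIF it read 209.6 and 224.9 against 95 and 66.8. Every Rbp2-/- array was below every Rbp2f/f array of either medium. The difference was -1.44 ± 0.16 (SE, log2 scale, n = 4 against 4 arrays, limma adjusted p = 0.017), with a 95% interval from -1.80 to -1.09. The Rbp2-/- level was 25.7% of the Rbp2f/f level with LIF and 37.2% without.

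The 6 Kdm5a probe sets did not all move together. The 3 brightest, 1452360_a_at, 1437105_at and 1437106_at, were lower in Rbp2-/- in both media, with 20.4% to 49.6% of the Rbp2f/f level left. The other 3 had mean intensities of 15.6 or less, below the level at which genes were tested, and differences of -0.21, 0.21 and 0.22. Which exons the probe sets cover relative to the deleted part was not analysed here. Of the paralogues tested, Kdm5b differed by -0.10 ± 0.13 (limma adjusted p = 0.767) and Kdm5c by 0.10 ± 0.13 (limma adjusted p = 0.763), and neither was called.

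Eif2s3y, the Y-linked copy of a translation initiation factor subunit, was also higher in Rbp2-/- cells. It read 8.8 and 4.5 for Rbp2f/f against 215.3 and 96.7 for Rbp2-/- with LIF, and 13.8 and 3.8 against 182.2 and 99.8 without. All 4 Rbp2-/- arrays were above all 4 Rbp2f/f arrays, which stayed below the level at which genes were tested. Eif2s3y rose by 2.74 ± 0.27 (limma adjusted p = 0.0143). It entered the test through its Rbp2-/- level alone, and the size depends on the amount added before taking logs, being 3.69 with 4 added and 1.53 with 64 (limma adjusted p = 0.0164 and 0.0169). Uty, a Y-linked histone demethylase relative, read 21.2 and 2.7 against 72.9 and 69.2 with LIF and 38.4 and 6.6 against 101.5 and 80 without. It was higher on all Rbp2-/- arrays but did not pass the test (1.66 ± 0.30, limma adjusted p = 0.0749). Of its Rbp2f/f readings, only that of replicate 1 without LIF reached the level for testing. Uty thus entered the test largely through its Rbp2-/- level.

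Within the Rbp2f/f arrays the Y-linked signal was not even. Replicate 1 was above replicate 2 in both media for Eif2s3y and for Uty. Kdm5d, the Y-linked paralogue of Kdm5a, was below the level for testing, and read 8.6, 5.6, 9.9 and 7.5 on the Rbp2f/f arrays against 34.6, 9.3, 44.4 and 12.9 on the Rbp2-/- arrays. Xist, the RNA that coats the inactive X chromosome, read between 28.3 and 51 on all 8 arrays and differed by -0.04 ± 0.19. Whether the genotypes differ in Y chromosome content was not tested, since DNA was not measured.

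Imprinted genes supplied the largest fall and 2 of the 6 rises. Grb10, an adaptor that restrains insulin and insulin-like growth factor receptor signalling and is expressed from the maternal copy in most tissues, read 839.3 and 1708.6 for Rbp2f/f against 97.3 and 195.3 for Rbp2-/- with LIF. Without LIF it read 3208.2 and 2098.2 against 51.4 and 312.1. The lowest Rbp2f/f array was thus above the highest Rbp2-/- array over both media. Grb10 fell by 3.55 ± 0.48 on the log2 scale (limma adjusted p = 0.0362), to 11.5% of the Rbp2f/f level with LIF and 6.85% without. Its other probe sets, 1425457_a_at and 1430164_a_at, had mean intensities of 65.7 and 20.4 and differences of -1.21 and -0.47. Both were below Rbp2f/f without overlap only in the medium without LIF.

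Sgce and Mest, both expressed from the paternal copy, rose. Sgce, which encodes epsilon-sarcoglycan, read 58.1 and 48.1 against 141.7 and 336.4 with LIF and 121.2 and 119.8 against 585.1 and 484.5 without. Its rise of 1.89 ± 0.23 (limma adjusted p = 0.017) was carried by the brighter of 2 probe sets, the other having a mean intensity of 10.7 and a difference of 0.09. Mest, which encodes an alpha/beta hydrolase-fold protein, read 679.1 and 970 against 1914.3 and 2216.4 with LIF and 3320.3 and 2627.2 against 7257.3 and 5710.4 without. Mest rose by 1.22 ± 0.14 (limma adjusted p = 0.017). Every Rbp2-/- array of Sgce was above every Rbp2f/f array. Mest was also higher without LIF in both genotypes, so its genotypes were apart within each medium but not across media.

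Peg10, the paternally expressed retrotransposon-derived gene next to Sgce, read 58.6 and 251 against 509 and 786 with LIF and 447 and 444 against 1470.0 and 1229 without. The Rbp2-/- arrays were higher in both media, and the difference of 1.88 ± 0.34 did not pass the test (limma adjusted p = 0.0749). Of the alternatives run, it passed on the values as deposited, with a pseudocount of 64 and with array weights (limma adjusted p from 0.00986 to 0.049).

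Among 19 paternally expressed imprinted genes tested, Mest and Sgce were called and the median difference was 0.48, against -0.01 over all genes. Of the 19, 10 were higher and 1 was lower at an unadjusted p under 0.05, shares that over all genes were 7.11% and 8.01%. The 3 on chromosome 6 were Mest, Sgce and Peg10, and the 16 on chromosomes other than 6 and 11 had a median of 0.32. Uncalled members with Rbp2-/- arrays above Rbp2f/f in both media were Usp29 (1.22 ± 0.22, limma adjusted p = 0.0749), Impact (0.75 ± 0.16, limma adjusted p = 0.0971), Peg3 (0.48 ± 0.12, limma adjusted p = 0.129) and Mcts2 (0.69 ± 0.18, limma adjusted p = 0.129). These 4 were named after their values were seen. Igf2, the growth factor gene, differed by -0.10 ± 0.27.

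Of 17 maternally expressed imprinted genes tested, Grb10 was called lower and none higher, with a median of -0.36. At an unadjusted p under 0.05, 6 were lower and 2 were higher, against 8.01% and 7.11% of all genes. Cdkn1c, an inhibitor of cyclin-dependent kinases, read 683 and 473 against 95.7 and 218 with LIF and 1008 and 1098 against 17.6 and 842 without. The Rbp2-/- arrays were lower in each medium, but those without LIF stood far apart from each other, and the difference of -2.25 ± 0.78 did not pass the test (limma adjusted p = 0.229). The 2 higher genes, Rian and Mirg, are non-coding RNAs of the Dlk1-Meg3 region. Rian read 168 and 10.4 for Rbp2f/f against 259 and 552 for Rbp2-/- with LIF, and 241 and 16.9 against 476 and 349 without. Rbp2f/f replicate 2 was low in both media for Rian and for Mirg, and Rian's difference of 2.35 ± 0.68 was not called (limma adjusted p = 0.167).

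RBP2's ARID domain has been reported to bind the DNA motif CCGCCC, which also occurs within the GC box of many promoters, so the windows before the start sites were searched for it on both strands (CCGCCC or GGGCGG). RefSeq windows of 250 bases before the start, on build GRCm38.p6, were found for 7 of the 11 called genes. Where a gene had several windows, as Grb10 (2) and Mest (3) did, the one richest in CG dinucleotides was taken. Kdm5a, Sgce, Cd99 and Esrp1 had no entry, so Grb10 and Igdcc4 were the only genes that fell with a window. Of the 7 windows, 4 held the motif, those of Grb10, Igdcc4, Mest and Eif2s3y, and those of Vps50, Cdca3 and Suclg1 did not. Over 8854 genes tested, with the window chosen likewise, 64.2% held it, so the called genes stand near the background. Over all 32851 windows, with no such choice made, 32.7% held it. A pair of called genes that fell and a pair that rose are shown 5′ to 3′, with the motif in capitals, to set the motif-dense Grb10 and Igdcc4 windows beside the sparser ones.
Grb10, chr11:12037421-12037670, minus strand: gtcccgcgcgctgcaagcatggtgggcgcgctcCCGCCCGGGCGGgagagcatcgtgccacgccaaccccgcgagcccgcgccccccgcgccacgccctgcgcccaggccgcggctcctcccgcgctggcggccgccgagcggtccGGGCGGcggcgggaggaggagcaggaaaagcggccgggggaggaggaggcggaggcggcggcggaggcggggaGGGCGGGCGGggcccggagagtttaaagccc
Igdcc4, chr9:65101236-65101485, plus strand: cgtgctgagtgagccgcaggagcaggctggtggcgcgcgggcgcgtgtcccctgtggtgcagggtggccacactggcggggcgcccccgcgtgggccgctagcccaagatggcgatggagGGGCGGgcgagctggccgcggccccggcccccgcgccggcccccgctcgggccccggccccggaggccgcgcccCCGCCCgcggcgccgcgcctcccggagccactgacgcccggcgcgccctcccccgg
Mest, chr6:30737800-30738049, plus strand: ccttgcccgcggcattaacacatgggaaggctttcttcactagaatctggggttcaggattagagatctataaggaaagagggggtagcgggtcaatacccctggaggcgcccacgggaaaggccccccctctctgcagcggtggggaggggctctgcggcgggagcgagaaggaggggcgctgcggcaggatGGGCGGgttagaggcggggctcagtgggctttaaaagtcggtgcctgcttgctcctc
Suclg1, chr6:73248255-73248504, plus strand: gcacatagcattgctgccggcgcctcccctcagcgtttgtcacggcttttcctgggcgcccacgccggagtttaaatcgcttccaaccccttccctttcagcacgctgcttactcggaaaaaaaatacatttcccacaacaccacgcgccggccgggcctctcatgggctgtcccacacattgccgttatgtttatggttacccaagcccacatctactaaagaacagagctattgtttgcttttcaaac
Counting overlaps, the motif occurred 5 times in the Grb10 window, 2 times in Igdcc4, 1 time in Mest and 0 times in Suclg1. CG dinucleotides numbered 40, 39, 14 and 15, against a median of 18 over the genes tested. In the same order, G and C made up 81.2%, 84.0%, 62.4% and 53.2% of the bases. The windows were shown for their motif content, and a tie between motif and direction was not tested. A match here is a description of the letters, since binding was not measured in these arrays.

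The other falls were in surface and splicing genes. Cd99, a membrane glycoprotein of cell adhesion and leukocyte migration, read 429.2 and 510.9 for Rbp2f/f against 130.3 and 152.1 for Rbp2-/- with LIF, and 562.1 and 625.1 against 133.2 and 252.5 without. All 4 Rbp2-/- arrays were below all 4 Rbp2f/f arrays. Cd99 fell by 1.62 ± 0.18 on the log2 scale (limma adjusted p = 0.017), and all 3 of its probe sets were lower without overlap in both media.

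Esrp1, a splicing regulator of epithelial cells, read 366 and 455.6 against 149 and 131.5 with LIF and 190.8 and 261.6 against 62.7 and 115.4 without. It was lower without LIF in both genotypes and lower in Rbp2-/- cells within each medium, at 34.1% and 39.4% of the Rbp2f/f level. The fall was 1.34 ± 0.19 (limma adjusted p = 0.0381).

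Igdcc4, a receptor-like member of the immunoglobulin superfamily, read 122.3 and 103.2 against 35.6 and 28 with LIF and 124.2 and 164.8 against 56.7 and 72 without. All Rbp2-/- arrays were below all Rbp2f/f arrays. It fell by 1.21 ± 0.17 (limma adjusted p = 0.0362). The next brightest probe set, 1416474_at, was also lower in both media, by 1.01 on the log2 scale. The other 2 were dim and overlapped in at least 1 medium.

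Esrp1 belongs to a list of epithelial junction and keratin genes. Of 26 members tested, Esrp1 was called lower and none higher. The median was -0.72, 23 of the 26 were negative, and 16 were lower and 0 higher at an unadjusted p under 0.05. Over all genes, 5720 of 10916 were negative, and 8.01% were lower and 7.11% higher at that level. Off chromosomes 6 and 11, where 24 of the 26 members lie, 8.94% of genes were lower and 3.98% higher. The medians of the list within each medium were -0.27 with LIF and -1.09 without. Cdh1, which encodes E-cadherin, the main adhesion protein of ES cell colonies, read 2553 and 2541 against 1360 and 1538 with LIF and 2165 and 3236 against 535 and 1597 without (-1.15 ± 0.30, limma adjusted p = 0.131). The Rbp2-/- arrays of Cdh1 were lower in each medium, and replicate 1 without LIF was lowest. Cldn7, a tight junction protein, differed by -1.08 ± 0.28 (limma adjusted p = 0.135) and St14, a membrane protease, by -1.14 ± 0.29 (limma adjusted p = 0.129). Krt8 and Krt18, the keratins of simple epithelia, differed by 0.11 ± 0.31 and 0.09 ± 0.26. In bulk RNA, fewer cells of a type and less RNA per cell cannot be told apart.

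The rises outside the imprinted and Y-linked genes were Vps50, Cdca3 and Suclg1, all on chromosome 6. Vps50, a subunit of an endosomal recycling complex, read 223.3 and 230.7 against 431.5 and 420.6 with LIF and 173.7 and 156.4 against 298.3 and 315.3 without. Every Rbp2-/- array was above every Rbp2f/f array, and Vps50 rose by 0.85 ± 0.12 (limma adjusted p = 0.0362). It lies second in gene order among the 529 chromosome 6 genes tested, with Sgce and Peg10 at 7 and 8.

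Cdca3, a cell cycle protein of mitotic entry, read 798.2 and 830.1 against 1473.8 and 1298.4 with LIF and 694.1 and 589.6 against 1576.8 and 1217.5 without. Suclg1, the alpha subunit of the mitochondrial succinyl-CoA ligase, read 943.1 and 922.8 against 1457 and 1493.3 with LIF and 1038.6 and 878.8 against 1761 and 1571.2 without. For each gene all 4 Rbp2-/- arrays were above all 4 Rbp2f/f arrays. Cdca3 rose by 0.92 ± 0.13 (limma adjusted p = 0.0437) and Suclg1 by 0.72 ± 0.11 (limma adjusted p = 0.0457). Only the brightest of 3 Cdca3 probe sets exceeded a mean intensity of 35.03.

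The difference between genotypes was set against gene position after the called genes were seen to fall on chromosome 6, so what follows is a description. The 529 chromosome 6 genes had a median difference of 0.30, and 85.4% were above 0. The medians of the 18 chromosomes other than 6, 11 and Y ran from -0.07 to 0.03. The chromosome 6 median was 0.31 with LIF and 0.28 without, and 0.33, 0.32, 0.32 and 0.26 on the 4 Rbp2-/- arrays taken singly. When the chromosome was divided into 10 blocks of consecutive genes, the median of every block was above 0 on every Rbp2-/- array, between 0.16 and 0.44. Among the 197 brightest genes of the chromosome, with mean intensities of at least 289, the median ratio of linear intensities was 1.32 with LIF and 1.30 without. The same ratios were 0.98 and 0.981 for genes off chromosomes 6 and 11.

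**Figure D2:**
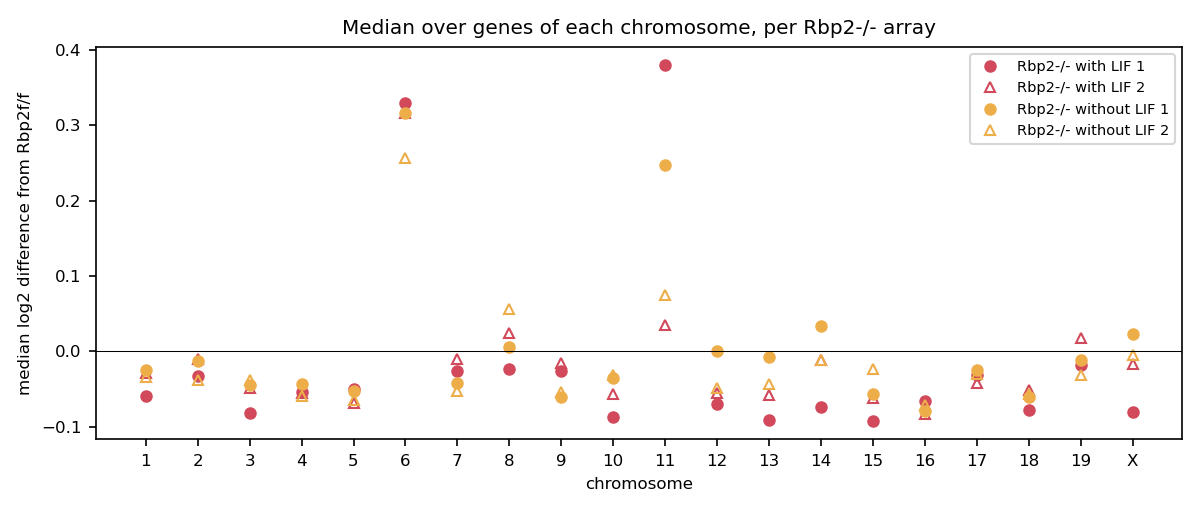
Median log2 difference of each Rbp2-/- array from the mean of the Rbp2f/f arrays in the same medium, over the genes tested on each chromosome. On chromosome 6 all 4 arrays lie between 0.26 and 0.33, and on chromosome 11 the replicate 1 arrays (0.38 and 0.25) lie above the replicate 2 arrays (0.03 and 0.07).

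Against the median of its own chromosome, Mest stood 0.93 higher, Sgce 1.59, Cdca3 0.63, Vps50 0.55 and Suclg1 0.42, and Kdm5a 1.74 lower. Mouse ES cells are known to gain chromosomes or parts of them in long culture. DNA copy number was not measured here, and its part in the chromosome 6 values was not tested. When the genes of chromosomes 6 and 11 were left out of normalization and test, an alternative chosen after seeing the data, 2 of the other genes were called, Eif2s3y (2.76 ± 0.27, limma adjusted p = 0.0136) and Cd99 (-1.58 ± 0.18, limma adjusted p = 0.0245). Esrp1 and Igdcc4 then each had an adjusted p of 0.0836.

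Chromosome 11 followed another course. Its 923 genes had a median of 0.18, but the medians on single Rbp2-/- arrays were 0.38 and 0.03 with LIF and 0.25 and 0.07 without, replicate 1 being the higher in each medium. The first block of 93 genes, from Eif4enif1 to Tmem17, was high on all 4 Rbp2-/- arrays, at 0.44, 0.34, 0.25 and 0.41. The other 830 genes were at 0.37 and 0.01 with LIF and 0.25 and 0.05 without. Grb10 lies in the first block, where it fell while the median of its neighbours was 0.34. Without the Rbp2-/- arrays of replicate 1, the chromosome 11 median stood 0.068 above that of the chromosomes other than 6 and 11, against 0.225 with all arrays. Without those of replicate 2 it stood 0.362 above.

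**Figure D3:**
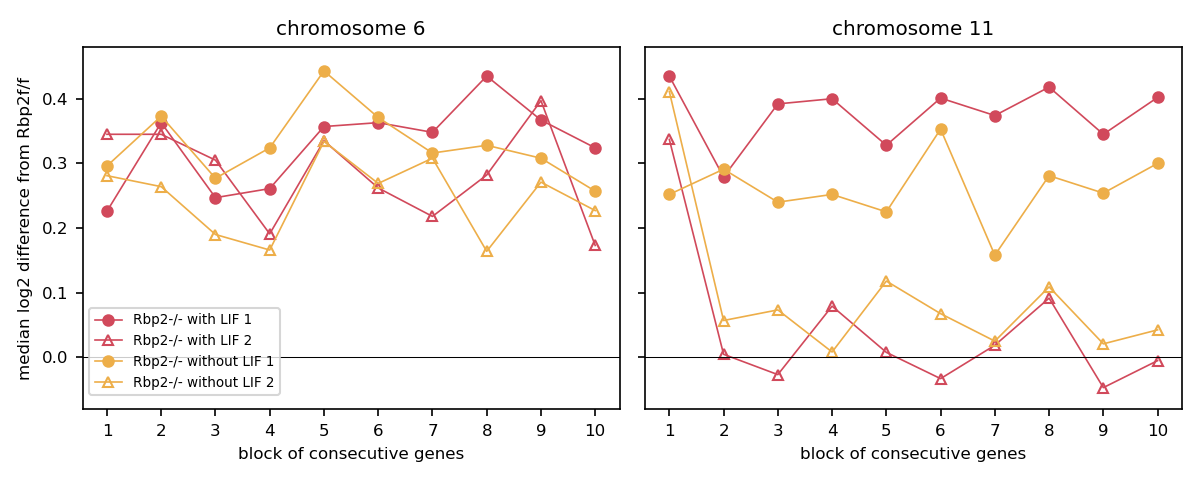
Median log2 difference of each Rbp2-/- array from the mean of the Rbp2f/f arrays in the same medium, in 10 blocks of consecutive genes along chromosome 6 (left) and chromosome 11 (right). All 4 arrays are above 0 along chromosome 6, and on chromosome 11 only the first block is high on all 4.

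Genes shifted the same way in both media were also counted without a test. In 1499 genes (13.7%) the Rbp2-/- and Rbp2f/f arrays did not overlap in either medium and the direction was the same, 733 higher (6.71%) and 766 lower (7.02%). The direction was opposite in the 2 media for 894 genes (8.19%), 443 of them higher in Rbp2-/- with LIF and lower without. Of the 733 higher genes, 186 lie on chromosome 6 and 145 on chromosome 11. On chromosome 6, 35.2% of genes were higher in this sense, against 5.27% of all other genes. Off chromosomes 6 and 11, 398 genes (4.22%) were higher and 748 (7.93%) lower. The genes off these 2 chromosomes had a median difference of -0.04, and 42.7% were above 0. Arrays had been brought to a common distribution over all probe sets, and the part of this step in the excess of lower genes was not tested.

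**Figure D4:**
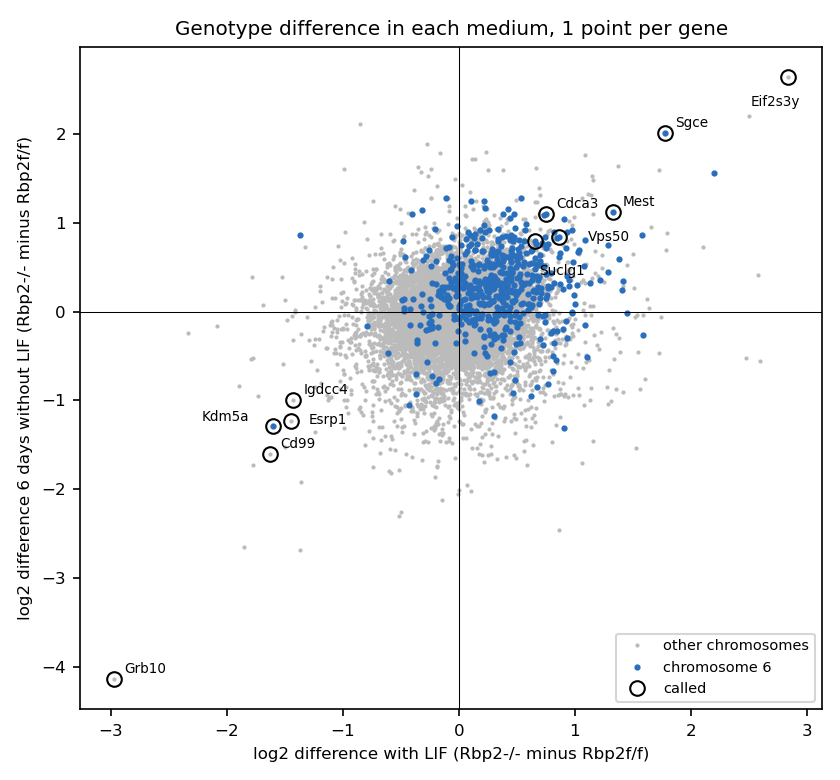
Log2 difference, Rbp2-/- minus Rbp2f/f, of each tested gene with LIF (horizontal) and 6 days without LIF (vertical), with chromosome 6 genes in blue and the 11 called genes ringed. The called genes lie at the upper right or lower left, and the chromosome 6 genes are centred to the upper right of the origin, with medians of 0.31 and 0.28.

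No gene's genotype difference was called as different between the media. The interaction test by limma called 0 of 10916 genes, with 1214 at an unadjusted p under 0.05 and a smallest adjusted p of 0.315. For the 11 called genes the interaction ran from -1.16 (Grb10, SE 0.92) to 0.44 on the log2 scale, with adjusted p of 0.617 or more. With 2 arrays a group, a p of this size does not show that the media were alike.

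Just short of the threshold, the ranking was again led by chromosome 6. The chromosome 11 genes among the 15 next in order of p, Uqcr10, Ddx56 and Sf3a1, lie in its first block. At an adjusted p under 0.1 by limma, 117 genes were found (1.07%), 72 higher and 45 lower. Of the 72 higher, 43 lie on chromosome 6 and 15 on chromosome 11, and of the 45 lower 1 lies on chromosome 6. Among the 15 genes next in order of p were Polr1a, the largest subunit of RNA polymerase I (0.92 ± 0.14, limma adjusted p = 0.0558), Immt, which organises mitochondrial cristae (0.86 ± 0.14, limma adjusted p = 0.0558) and Phb2, a prohibitin (0.61 ± 0.10, limma adjusted p = 0.056), all on chromosome 6. Uqcr10, a subunit of respiratory complex III on chromosome 11, differed by 0.68 ± 0.11 (limma adjusted p = 0.0558). They are given as values, and none was called.

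Members of 35 gene lists were then followed through the same fit. Of the genes in them, Kdm5a, Eif2s3y, Mest, Sgce, Grb10 and Esrp1 were called, and lists without these had no called gene, against 0.101% of all genes. Cd99, Igdcc4, Vps50, Cdca3 and Suclg1 belong to none of the lists. The median of all genes was -0.01 here, -0.11 after median centring and -0.14 on the values as deposited, so list medians are set against it. The lists with the lowest medians after the epithelial one were the formative epiblast genes (17 tested, -0.44), neuroectoderm (9 tested, -0.42) and, below the maternally expressed imprinted genes in size, p53 targets (22 tested, -0.21). Those with the highest, apart from the imprinted genes and the 3 Y-linked and X inactivation genes, were mesoderm derivatives (24 tested, 0.44), Hox genes (7 tested, 0.24), glycolysis and hypoxia genes (29 tested, 0.24) and mitosis genes (24 tested, 0.22). Off chromosomes 6 and 11 the Hox median turned to -0.26 over 3 genes and the glycolysis median was 0.08 over 21, against 0.40 over 20 mesoderm genes and 0.19 over 20 mitosis genes. Not every average held in both media. The glycolysis median was -0.08 with LIF and 0.37 without, and that of p53 targets -0.05 and -0.49, against 0.39 and 0.42 for mesoderm derivatives.

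**Figure D5:**
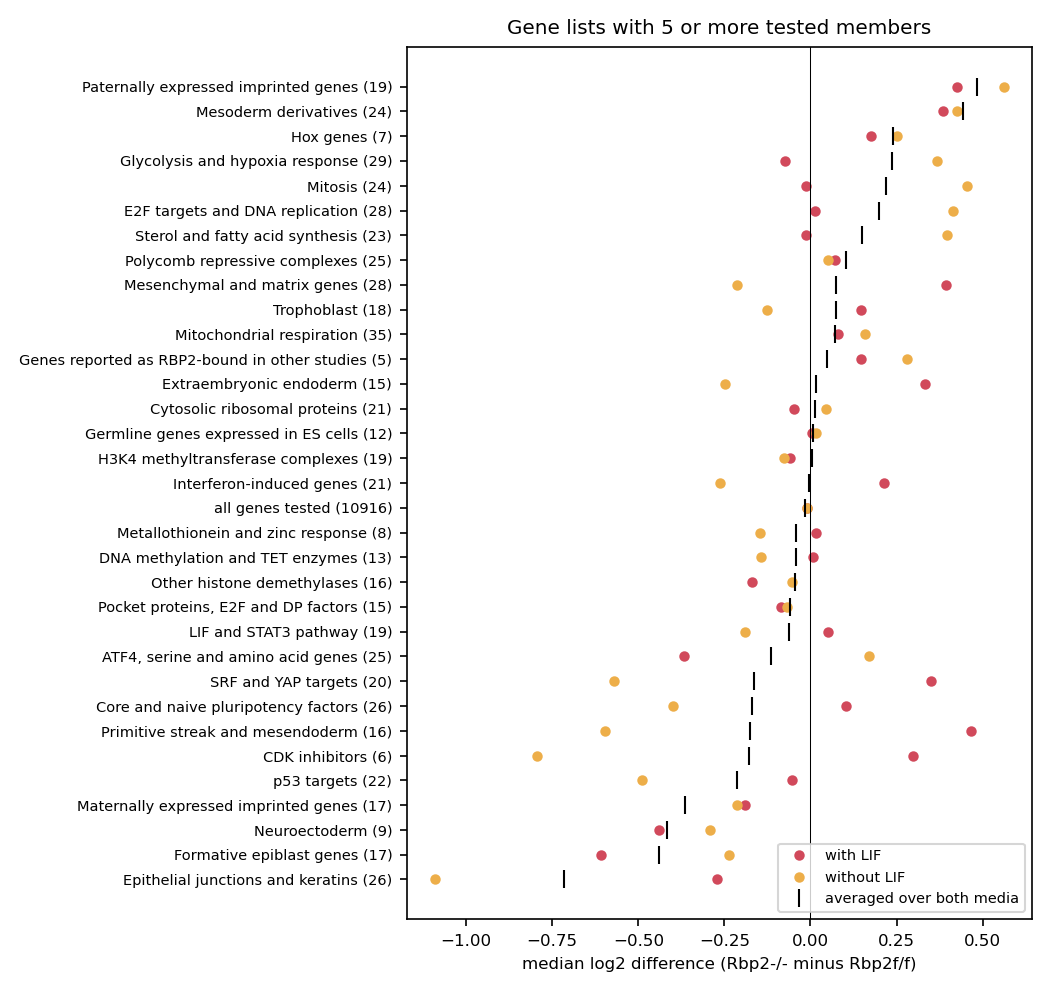
Median log2 difference, Rbp2-/- minus Rbp2f/f, of the tested members of each list with 5 or more of them (number in brackets), as points for each medium and a tick for the average over both. The epithelial list has the lowest average at -0.72, and the median of all genes is -0.01.

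Among regulators of the epiblast, Pou3f1, a POU factor of the formative state, read 219 and 592 against 101 and 87.9 with LIF and 179 and 317 against 27.7 and 119 without (-1.76 ± 0.38, limma adjusted p = 0.0961). Rbp2-/- arrays were lower in each medium. Sox2, a core pluripotency factor, read 3112 and 3132 against 2444 and 1519 with LIF and 420.1 and 389 against 236 and 258 without (-0.68 ± 0.15, limma adjusted p = 0.0961). It too was lower on the Rbp2-/- arrays of each medium without passing the test. The 26 tested core and naive pluripotency genes had a median of -0.17, 0.10 with LIF and -0.40 without. In the formative list 7 of 17 were lower and 0 higher at an unadjusted p under 0.05, against 8.01% and 7.11% of all genes. None of the 17 lies on chromosome 6 or 11. Off those chromosomes 8.94% of genes were lower and 3.98% higher at that level.

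Of 24 mesoderm genes, 10 were higher and 1 lower at that level, against 7.11% and 8.01% of all genes. Msx2, a homeobox gene downstream of BMP signalling, read 106 and 55.3 against 125 and 293 with LIF and 530.4 and 436 against 1655 and 1138 without (1.32 ± 0.27, limma adjusted p = 0.0853). Its Rbp2-/- arrays were the higher in both media. Col5a1, a collagen chain and one of the fibroblast markers, differed by 1.24 ± 0.28 (limma adjusted p = 0.104). Twist1, a mesenchymal transcription factor, differed in the other direction, by -0.60 ± 0.15 (limma adjusted p = 0.13). Of the 10 fibroblast markers tested, 7 were above 0 and 3 below, Lox at -0.84, Col3a1 at -0.55 and Thy1 at -0.42. Without LIF the higher Rbp2-/- sum was carried by Col1a1 at 2766.2 on replicate 1, and the other Rbp2-/- sum lay between the Rbp2f/f sums.

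The cell cycle lists were largely on the positive side. Of 28 E2F target and replication genes 26 were above 0, with a median of 0.20, and 8 were higher at an unadjusted p under 0.05. The 24 mitosis genes had 20 above 0 and 8 higher at that level. Of all genes tested, 47.6% were above 0 and 7.11% were higher at that level. For the replication and mitosis lists, medians were 0.01 and -0.01 with LIF and 0.41 and 0.46 without. Tk1, thymidine kinase on chromosome 11, read 308 and 353 against 627 and 492 with LIF and 443 and 317 against 637 and 620.1 without (0.72 ± 0.14, limma adjusted p = 0.0853). Mcm2, of the replicative helicase, differed by 0.74 ± 0.14 (limma adjusted p = 0.0821) and Mad2l1, of the spindle checkpoint, by 0.86 ± 0.16 (limma adjusted p = 0.0749), both on chromosome 6. Off chromosomes 6 and 11 the medians were 0.17 and 0.19. Among the pocket proteins and E2F factors, Rb1 itself differed by -0.55 ± 0.16 (limma adjusted p = 0.165), and Pmaip1, a p53 target that promotes apoptosis, by -0.99 ± 0.21 (limma adjusted p = 0.0961).

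The lists of chromatin regulators had medians from -0.10 to 0.10. The 19 tested members of H3K4 methyltransferase complexes had a median of 0.00, with Kmt2d, a methyltransferase of enhancers, at -0.56 ± 0.12 (limma adjusted p = 0.0971). The 25 Polycomb genes had a median of 0.10, and the 17 of them off chromosomes 6 and 11 of 0.02. Ezh2, the Polycomb methyltransferase, differed by 0.49 ± 0.13 (limma adjusted p = 0.131) and Phc1 by 0.57 ± 0.13 (limma adjusted p = 0.114), both on chromosome 6. Kdm3a, an H3K9 demethylase on chromosome 6, differed by 0.74 ± 0.15 (limma adjusted p = 0.0836). Of 7 genes listed as RBP2-bound in other studies, 5 were tested, with a median of 0.05. In that list the 2 members on chromosome 6, Cdkn1b, a cyclin-dependent kinase inhibitor, and Hoxa5, a homeobox gene, had differences of 0.34 ± 0.19 and 0.09 ± 0.17.

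The calls rested on few arrays. Replicates 1 and 2 differed in the same way in both media for chromosome 11 in Rbp2-/- and for Rian, Eif2s3y and Uty in Rbp2f/f, so the 4 arrays of a genotype may not be independent samples. These genes were picked after their values were seen. Between the media, the correlation of replicate differences was 0.273 in Rbp2-/- and -0.0567 in Rbp2f/f. Leaving out single arrays in turn, the number of genes called was 0 without Rbp2f/f with LIF replicate 1 or without Rbp2f/f without LIF replicate 2 (1378 and 1183 genes at an unadjusted p under 0.05). It was 4 without Rbp2f/f with LIF replicate 2, 1 without Rbp2f/f without LIF replicate 1, and 2 without Rbp2-/- with LIF replicate 1. It was 4 and 5 without replicates 1 and 2 of Rbp2-/- without LIF. Without the dim array, Rbp2-/- with LIF replicate 2, it was 11, of which 7 were among the 11 above. Eif2s3y stayed called in 6 of the 8 omissions, Kdm5a, Cd99, Mest and Grb10 in 3, Sgce in 2, Esrp1 and Cdca3 in 1, and Igdcc4, Vps50 and Suclg1 in 0. No called gene changed direction in any of them.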

How the data were processed

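The deposited values are linear intensities, 1 per probe set and array; the authors' software and scaling for these intensity values were not given in the sources used here. Probe sets with 1 gene symbol in the platform annotation (34958 of 45101) were used; 932 had several and 9211 none. Intensities were quantile-normalized, 16 was added and log2 taken. The brightest probe set stood for each of 18194 genes, and 10916 genes whose mean reached the 40th percentile (28.3) were tested. Genotype was fitted with medium as a block in limma 3.58.1 (R 4.3.3; lmFit and eBayes with trend, two-sided, 5 residual and 5.04 prior degrees of freedom), with Benjamini-Hochberg adjustment. The interaction came from the 4 group means. The fit was tested on simulated data. Genes named are Kdm5a, the called genes, and in each list the called members or else the 2 of smallest p; other genes named were chosen after their values were seen. The members and lists were chosen with earlier results of these data known. Alternatives were median centring, no scaling, pseudocounts, filters, no trend, array weights, probe set means, a replicate block and omitted arrays.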

Additional observations from a re-analysis of the deposited data

Results flagged for a closer look

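Probe sets with no single gene symbol were fitted separately, and 8 of the 1726 above the same intensity minimum were called by limma (adjusted among these), 6 higher and 2 lower in Rbp2-/-. The comparison of named genes did not use these probe sets. The 6 higher were listed for a closer look as data which that comparison had left unanalysed. Their log2 differences are given in brackets: 1426438_at (2.74), 1452077_at (2.68), 1426439_at (1.78), 1427820_at (1.20), 1435716_x_at (1.10) and 1415895_at (0.68). The probe set 1426438_at read 12.9, 0.6, 34.2 and 1.7 on the Rbp2f/f arrays and 191.3, 121.9, 180.9 and 132.5 on the Rbp2-/- arrays. In 1426438_at, 1452077_at and 1426439_at, Rbp2f/f replicate 1 was above replicate 2 in both media. Of their Rbp2f/f readings, only those of replicate 1 without LIF for 1426438_at (34.2) and 1452077_at (42.1) reached the intensity minimum of 28.3. These probe sets thus entered the test largely through their Rbp2-/- level. The size of their log2 differences depends on the amount added before taking logs. The 2 lower were 1436320_at (-1.62) and 1438177_x_at (-1.47).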

How the results depend on the processing

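Each of the 11 called genes kept its direction in every alternative that gave it a value, 20 to 22 each; Eif2s3y had none with the 60th percentile filter or probe set means, and the genes of chromosomes 6 and 11 none where those were left out. Against 11 genes called, the count was 20 with a pseudocount of 64, 6 with no filter, 18 with a filter at the 60th percentile, 4 without a trend and 443 with array weights (219 higher, 224 lower). With the mean of all probe sets of a gene it was 0, with 1422 genes at an unadjusted p under 0.05. It was 2 with the genes of chromosomes 6 and 11 left out, 4 without both Rbp2-/- arrays of replicate 1 and 5 without both of replicate 2, all 3 chosen after seeing the data. Leaving out single arrays gave 0 to 11. Same-numbered arrays were not shown to be paired: correlations of the replicate differences between groups were -0.068, -0.0567 and -0.00145 for the 3 pairs with Rbp2f/f with LIF, and 0.252, 0.253 and 0.273 for the others. A replicate block gave 21 calls for the genotype, among them all 11 and also Uty, Pou3f1 and Pmaip1 (adjusted p 0.033, 0.038 and 0.033), and 1 for the interaction (Gbp2). The interaction otherwise gave 0 calls, except 1 (Rpl41) without Rbp2-/- without LIF replicate 2 and 1 (Rpl41) without both Rbp2-/- arrays of replicate 2; over single omissions it gave 0 to 1. The count of genes apart in both media, 1499 with all arrays, was 1933 to 2714 with single arrays left out, and 3167 and 3902 without both Rbp2-/- arrays of replicates 1 and 2, since fewer arrays overlap less. The excess of the chromosome 6 median over the chromosomes other than 6 and 11, 0.339, was 0.252 with a pseudocount of 64, 0.151 with no filter, 0.394 with the 60th percentile filter and 0.286 with probe set means. The cause was not tested for the changes in calls. Dim probe sets limit all values near the intensity minimum.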
